A study of Mus musculus with 4 samples.

Results

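Unconventional myosins are the myosins other than muscle and nonmuscle myosin II, and most of them do not assemble into its bipolar filaments. Most have a motor head that binds actin and uses ATP, a neck that binds light chains, and a tail that chooses the cargo. Class I myosins tie actin to membranes, class V myosins carry vesicles and recycling endosomes, class VI moves the other way along actin and serves endocytosis, class IX members carry a GTPase-activating domain in the tail, class X works in filopodia, and class XVIII joins actomyosin structures and the Golgi. In epithelia, lung epithelium among them, such motors take part in delivery to the apical membrane, traffic of secretory organelles and cell shape.

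The genes described here are 9 unconventional myosins, *Myo1c*, *Myo1d*, *Myo1e*, *Myo5a*, *Myo5b*, *Myo6*, *Myo9b*, *Myo10* and *Myo18a*, found by symbol among the 45706 genes of the table. RNA-seq counts were available for the left lung lobe of untreated C57BL/6 mouse embryos at embryonic day 17, 2 of them wild type and 2 homozygous for the L458R missense allele of *Myh10* (Myh10L458R/L458R, called mutant below). *Myh10* encodes the heavy chain of nonmuscle myosin IIB. The allele came from a chemical mutagenesis screen and was present in every cell of the embryo, so the lungs do not separate effects by cell type. The total count per lung was 23156026 and 19116971 in the wild-type lungs and 27573824 and 32055306 in the mutant lungs. The level of *Myh10* itself was 505 and 504 CPM (the counts of a gene per 1000000 counts of its library, scaled by the trimmed mean of M values, TMM) in wild-type lungs against 539 and 513 in mutant lungs. A substitution need not alter the level of its transcript, so this does not check the genotype labels.

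The 4 libraries held the markers of lung. *Nkx2-1*, the transcription factor of lung epithelium, was at 434 and 454 CPM in wild-type lungs and 455 and 447 CPM in mutant lungs. *Xist*, the RNA of the inactive X chromosome, was at 3914 CPM in wild-type lung 1 and 4455 CPM in mutant lung 2, and at 1.84 and 4.10 CPM in the other two. *Ddx3y*, on the Y chromosome, showed the opposite pattern, from 0.0932 to 198 CPM. Each genotype thus held 1 lung with high *Xist* and 1 with high *Ddx3y*, and the lungs sharing a number differed in these genes.

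*Myo1c* and *Myo1d*, both class I members, fell in mutant lungs, and the other 7 genes did not pass the test. The test was edgeR's quasi-likelihood test with Benjamini-Hochberg adjustment over all 18763 tested genes, at an adjusted p under 0.05, and 9 of 9 genes were tested. Of all tested genes 1.64% were called, 1.34% lower and 0.298% higher, against 2 lower and 0 higher of these 9. At an unadjusted p under 0.05, 4 of the 9 were lower and 2 higher, and 16.5% of all tested genes passed this limit, 9.02% lower and 7.52% higher. The median log2 fold change, mutant over wild type, was -0.09 for the 9 genes and 0.00 for all tested genes. Both calls depended on wild-type lung 1: without it none of the 9 passed (adjusted p = 0.169 for *Myo1c* and 0.115 for *Myo1d*), while 1.65% of all tested genes did. Without wild-type lung 2 both stayed past the threshold, as 2 of the 9 where 1.02% of all genes passed. Without mutant lung 1, 4 of the 9 passed, all lower (1.63% of all genes), and without mutant lung 2, 4 passed, 2 in each direction (9.73% of all genes). In a bulk sample, fewer cells of a type and less RNA per cell cannot be told apart.

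**Figure D1:**
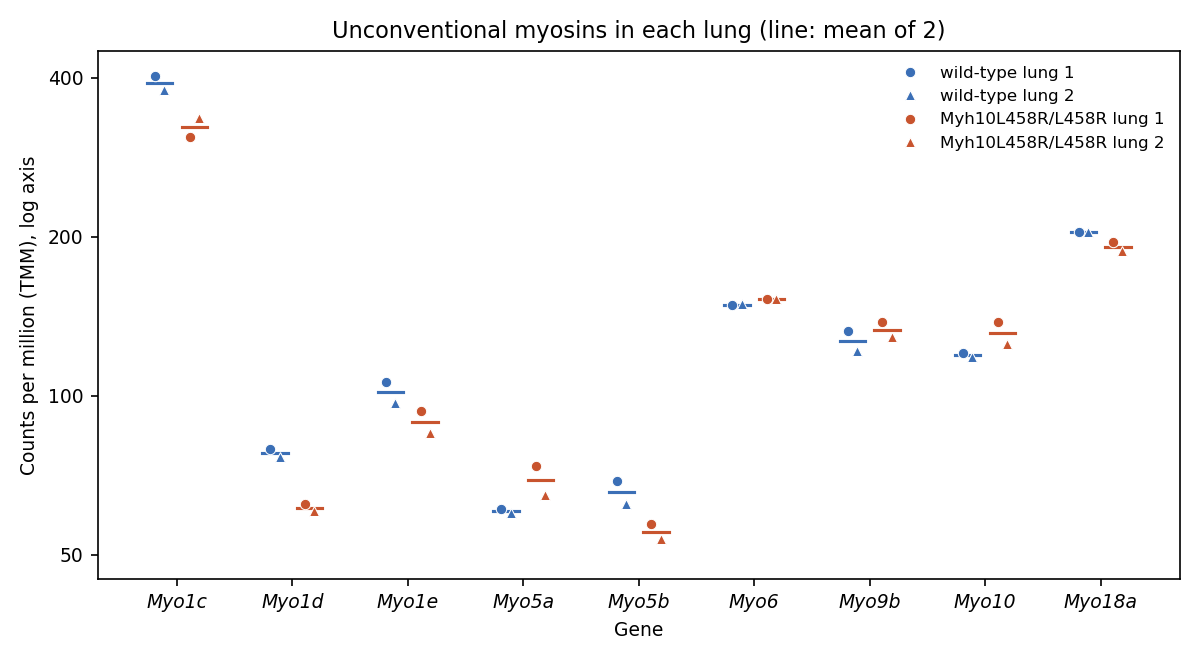
TMM-scaled CPM (log axis) of the 9 myosins in each lung, with circles for lung 1, triangles for lung 2 and a line at the mean of 2. Mutant lungs lie below wild-type lungs for *Myo1c*, *Myo1d*, *Myo1e*, *Myo5b* and *Myo18a*, above them for *Myo5a*, *Myo6* and *Myo10*, and overlap them for *Myo9b*.

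*Myo1c* (ENSMUSG00000017774, GRCm38 chr11:75650504-75673910, plus strand) encodes a short-tailed class I motor that binds membrane phosphoinositides and helps to deliver vesicles to the plasma membrane. It was at 402 and 378 CPM in wild-type lungs and at 309 and 335 CPM in mutant lungs. Both mutant lungs were lower than both wild-type lungs, with means of 390 ± 16.8 and 322 ± 18.3 CPM (SD, n = 2 each). The log2 fold change was -0.28 (SE 0.06, 95% interval -0.40 to -0.15, adjusted p = 0.0330), a fall of 17.4%. These values rested on 9220, 7210, 8610 and 10794 counts, the highest counts of the 9 genes.

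*Myo1c* has several transcript starts, and the count of the gene sums the reads from them. RefSeq (GRCm38.p6) lists 3 start windows, each from 250 bases before to 50 bases after a start, on the plus strand. They are printed because they belong to the most abundant of these myosins and differ in composition. Window 1 is chr11:75650269-75650568, window 2 is chr11:75651900-75652199 and window 3 is chr11:75655765-75656064. Capitals mark matches to the GC box GGGCGG, searched on both strands, and, at the end of window 2, to CAAGTG, a core of NKX2-1 sites.
Myo1c window 1: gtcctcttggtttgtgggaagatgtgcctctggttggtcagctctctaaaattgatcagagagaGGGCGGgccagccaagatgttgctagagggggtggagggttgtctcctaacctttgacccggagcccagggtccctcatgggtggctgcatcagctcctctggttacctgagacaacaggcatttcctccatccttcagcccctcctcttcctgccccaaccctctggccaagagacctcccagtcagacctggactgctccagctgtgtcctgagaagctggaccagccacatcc
Myo1c window 2: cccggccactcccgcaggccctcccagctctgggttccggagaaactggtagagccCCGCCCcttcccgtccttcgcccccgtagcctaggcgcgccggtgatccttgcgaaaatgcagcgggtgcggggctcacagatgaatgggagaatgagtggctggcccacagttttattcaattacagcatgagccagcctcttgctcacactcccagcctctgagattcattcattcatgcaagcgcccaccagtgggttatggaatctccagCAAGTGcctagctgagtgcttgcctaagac
Myo1c window 3: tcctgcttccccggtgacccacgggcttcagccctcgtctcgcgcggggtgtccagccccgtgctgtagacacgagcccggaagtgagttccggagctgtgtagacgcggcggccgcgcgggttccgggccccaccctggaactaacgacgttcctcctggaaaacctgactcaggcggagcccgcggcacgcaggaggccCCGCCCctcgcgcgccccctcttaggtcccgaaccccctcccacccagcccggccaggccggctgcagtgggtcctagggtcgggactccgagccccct

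The windows differed in base composition, with a GC content of 58%, 59.33% and 72% and with 2, 14 and 32 CpG dinucleotides from the first to the third. The GC box matches began at position -186, -194 and -49 relative to the starts, and the CAAGTG match at position 21. Of 32851 mouse promoter windows of the same length, 35.66% held a GC box and 13.56% held CAAGTG on either strand. Neither CATTCC, a core of TEAD sites held by 14.66% of the windows, nor TATAAA, held by 13.62%, was among the letters of the 3 windows. The gene-level counts do not say from which start the reads came.

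*Myo1d* (ENSMUSG00000035441, chr11:80482126-80780025, minus strand) encodes another short-tailed class I motor, known for its part in left-right asymmetry. Its level was 79.3 and 76.7 CPM in wild-type lungs and 62.3 and 60.5 CPM in mutant lungs. The gap between the genotypes was wider than the gap within either of them. The log2 fold change was -0.35 (SE 0.07, 95% interval -0.49 to -0.20, adjusted p = 0.0272), a fall of 21.3%, on 1461 to 1947 counts per lung.

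*Myo1e* (ENSMUSG00000032220, chr9:70207350-70399766, plus strand) encodes a long-tailed class I motor with an SH3 domain that works in endocytosis and at cell-cell contacts. It was at 106 and 96.7 CPM in wild-type lungs and 93.6 and 84.9 CPM in mutant lungs. The genotypes did not overlap, but the log2 fold change of -0.19 (SE 0.07, 95% interval -0.33 to -0.04) did not pass, with an adjusted p of 0.193. Without single lungs it ranged from -0.26 to -0.12.

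The ratios among class I genes within a lung do not depend on how the libraries were scaled. *Myo1d* stood at 0.197 and 0.203 of the *Myo1c* count in wild-type lungs and at 0.202 and 0.180 in mutant lungs. The genotypes overlapped, and the difference of -0.07 on the log2 scale had an exact two-sided permutation p of 0.667. *Myo1e* stood at 0.264 and 0.255 of the *Myo1c* count in wild-type lungs and at 0.302 and 0.253 in mutant lungs, which also overlapped (log2 difference 0.09, exact permutation p = 1). With 2 lungs per genotype the smallest p this test can give is 0.333, so none of these ratios could pass.

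The class V pair went in opposite directions without either gene passing. *Myo5a* (ENSMUSG00000034593, chr9:75071015-75223688, plus strand), the motor that holds melanosomes and other organelles at the cell periphery, was at 61.0 and 60.0 CPM in wild-type lungs and 73.5 and 64.9 CPM in mutant lungs. *Myo5b* (ENSMUSG00000025885, chromosome 18), which moves Rab11 recycling endosomes towards the apical membrane and is mutated in microvillus inclusion disease, was at 68.9 and 62.4 CPM in wild-type lungs and 57.1 and 53.4 CPM in mutant lungs. Neither gene overlapped between genotypes, nor did 48.3% of all tested genes. The log2 fold change was 0.19 (SE 0.08, 95% interval 0.03 to 0.36, adjusted p = 0.229) for *Myo5a*. For *Myo5b* it was -0.25 (SE 0.08, 95% interval -0.42 to -0.08, adjusted p = 0.129). Without single lungs the log2 fold change ranged from 0.10 to 0.28 for *Myo5a* and from -0.32 to -0.18 for *Myo5b*.

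The count of *Myo5b* exceeded that of *Myo5a* in both wild-type lungs, with ratios of 1.13 and 1.04, and was below it in both mutant lungs, with ratios of 0.776 and 0.823. The ratios did not overlap between genotypes, and their log2 difference was -0.44. Its exact two-sided permutation p was 0.333, the smallest that 2 lungs against 2 can give, and 0.667 after adjustment over the 4 ratios computed.

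**Figure D2:**
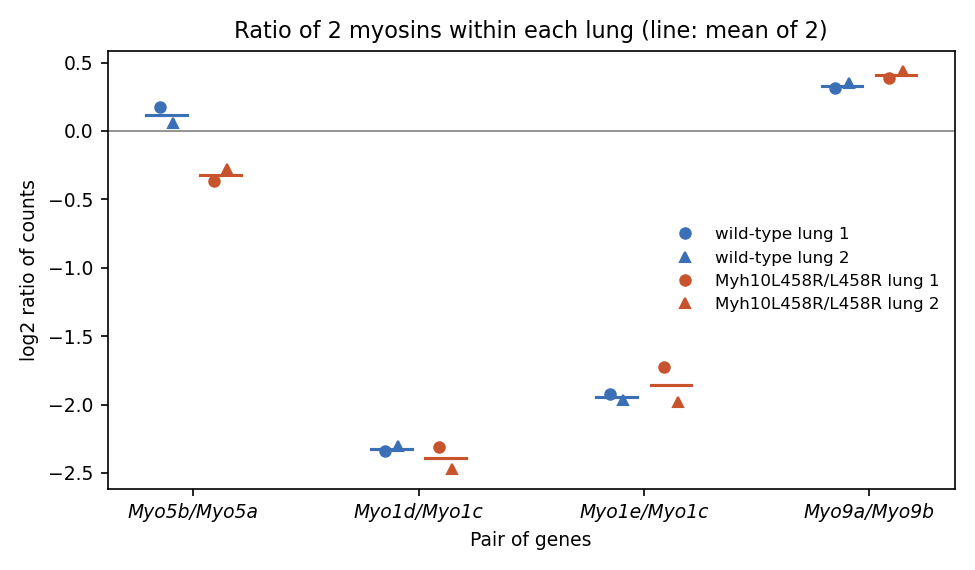
Log2 ratio of the counts of 2 myosins in the same lung (circles lung 1, triangles lung 2, line at the mean of 2), for 4 pairs of genes. The *Myo5b* to *Myo5a* ratio is above 0 in both wild-type lungs and below 0 in both mutant lungs, whereas the ratios of *Myo1d* and *Myo1e* to *Myo1c* overlap between genotypes.

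*Myo6*, *Myo9b*, *Myo10* and *Myo18a* differed less. *Myo6* (ENSMUSG00000033577, chr9:80165031-80311729, plus strand), the motor that moves towards the minus end of actin in endocytosis, was at 148 and 149 CPM in wild-type lungs and 152 in both mutant lungs. Its log2 fold change was 0.04 (SE 0.05, 95% interval -0.07 to 0.14, adjusted p = 0.766). Both mutant lungs were above both wild-type lungs by a small margin, and the sign of the fold change turned to -0.029 when GC content and exon length were taken into account.

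*Myo9b* (ENSMUSG00000004677, chr8:71272714-71360713, plus strand), which carries a RhoA-directed GTPase-activating domain, was at 132 and 121 CPM in wild-type lungs and 138 and 129 CPM in mutant lungs. It was the one gene of the 9 whose genotypes overlapped (log2 fold change 0.07, SE 0.06, adjusted p = 0.588). Without wild-type lung 1, wild-type lung 2, mutant lung 1 or mutant lung 2 in turn, that value lay between 0.0099 and 0.14 and did not pass. Its exons share 116 bases with *Haus8* on the other strand, so reads there would be left out of the count if the counting ignored strand. *Myo9a*, the other class IX gene, was at 165 and 155 CPM against 180 and 175 CPM (log2 fold change 0.15, SE 0.05, adjusted p = 0.160). With GC content and exon length taken into account it gave 0.067, and without mutant lung 2 it gave 0.17 and passed (adjusted p = 0.0462). Its ratio to *Myo9b* was 1.24 and 1.27 in wild-type lungs and 1.30 and 1.36 in mutant lungs (exact permutation p = 0.333), and the log2 difference of 0.08 turned to -0.033 when GC content and exon length were taken into account.

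*Myo10* (ENSMUSG00000022272, chr15:25622525-25813673, plus strand), the motor of filopodial tips, was at 121 and 118 CPM in wild-type lungs and 138 and 125 CPM in mutant lungs. The log2 fold change was 0.14 (SE 0.06, 95% interval 0.01 to 0.26, adjusted p = 0.260), and 0.068 to 0.21 without single lungs. *Myo18a* (ENSMUSG00000000631, chr11:77763246-77865980, plus strand) encodes a protein that co-assembles with nonmuscle myosin II and is also known as a receptor for surfactant protein A. It was at 205 and 204 CPM in wild-type lungs and 195 and 188 CPM in mutant lungs. Both mutant lungs were below both wild-type lungs, and the log2 fold change of -0.09 (SE 0.05, adjusted p = 0.328) did not pass.

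For 5 of the 9 genes both mutant lungs lay below both wild-type lungs, and for 3 both lay above. With 2 lungs per genotype 48.3% of all tested genes did not overlap, 24.3% lower and 23.9% higher. The summed level of the 9 genes was 1324 and 1267 CPM in wild-type lungs and 1219 and 1193 CPM in mutant lungs. In this sum *Myo1c* alone gave 402 and 378 against 309 and 335 CPM, and 4 of the 9 genes had a fold change above 0.

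*Myo1c*, *Myo18a* and *Myo1d* lie on chromosome 11, at 6.83, 8.95 and 11.7 megabases from the end of *Myh10*. Of the 282 tested genes from *Myh10* to *Myo1d*, 3 were called (1.06%), *Myo1c*, *Nos2* and *Myo1d*, and of the 1533 tested genes of the chromosome 29 were called (1.89%). The share over all tested genes was 1.64%. This interval was set to end at *Myo1d*, itself called, and runs in a single direction from *Myh10*. An effect of position near *Myh10* was not tested.

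Levels between genes were compared as CPM per kb of exon. In wild-type lungs *Myo1c* was highest at 59.3 CPM per kb, followed by *Myo1e* at 17.8 and *Myo9b* at 16.9, then *Myo18a* at 12.7, *Myo6* at 12.3, *Myo1d* at 12.1 and *Myo10* at 11.8, and last *Myo5b* at 6.72 and *Myo5a* at 4.09. Neighbours whose wild-type ranges overlapped were *Myo1e* with *Myo9b* and *Myo1d* with *Myo10*. Over all 4 lungs the ranges of *Myo18a* and *Myo6* overlapped too. In mutant lungs *Myo9b* (17.8 CPM per kb) stood above *Myo1e* (15.6), and *Myo10* (12.98 CPM per kb) and *Myo6* (12.6) stood above *Myo18a* (11.9) and *Myo1d* (9.50). Of the family as a whole, *Myo5c* (35.5 CPM per kb) stood between *Myo1c* and *Myo1e* in wild-type lungs.

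**Figure D3:**
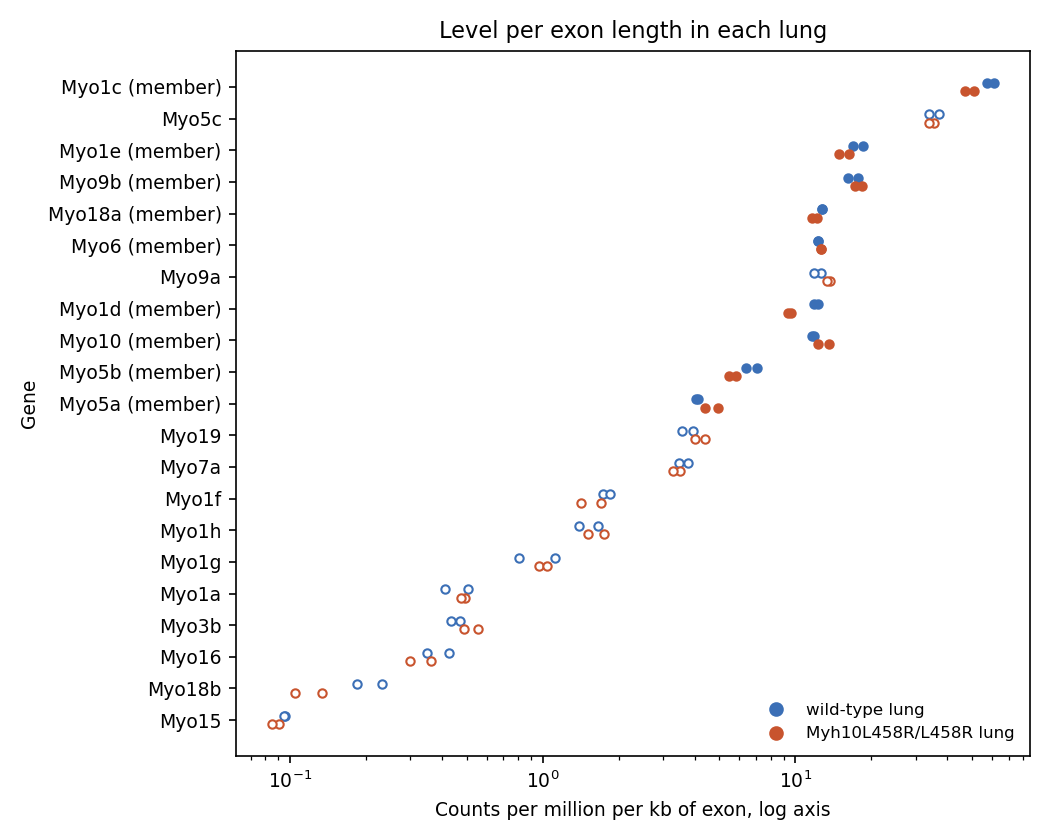
CPM per kb of exon (log axis) in each of the 4 lungs for 21 of the 22 tested unconventional myosins, with filled points for the 9 genes described and open points for the others. *Myo1c* is highest in every lung, and the 9 genes span 4.09 to 59.3 CPM per kb in wild-type means.

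None of the other 13 tested unconventional myosins passed the test. *Myo5c*, an epithelial class V motor of secretory granules, was at 360 and 328 CPM in wild-type lungs and 344 and 327 in mutant lungs (log2 fold change -0.04, SE 0.06, adjusted p = 0.809). It overlapped between genotypes and was more abundant per length than every one of the 9 but *Myo1c*. *Myo19*, a mitochondrial motor, was at 28.0 and 25.3 against 31.2 and 28.6 CPM (0.16, adjusted p = 0.335). *Myo7a*, a motor of sensory hair bundles, was at 32.3 and 29.8 against 29.9 and 28.0 CPM (-0.10, adjusted p = 0.543). Without single lungs *Myo19* ranged from 0.094 to 0.24 and *Myo7a* from -0.16 to -0.043. At an unadjusted p under 0.05, 1 of the 13 was lower, *Myo18b*, a gene of striated muscle, and 1 higher, *Myo9a*. *Myo18b* rested on 36 to 47 counts per lung and was at 1.96 and 2.47 against 1.44 and 1.12 CPM (-0.79, SE 0.27, adjusted p = 0.166). It passed when the filter on low counts was lifted, where 4.07% of all genes passed. *Myo3a* and *Myo7b*, untested, had at most 4 counts in any lung.

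**Figure D4:**
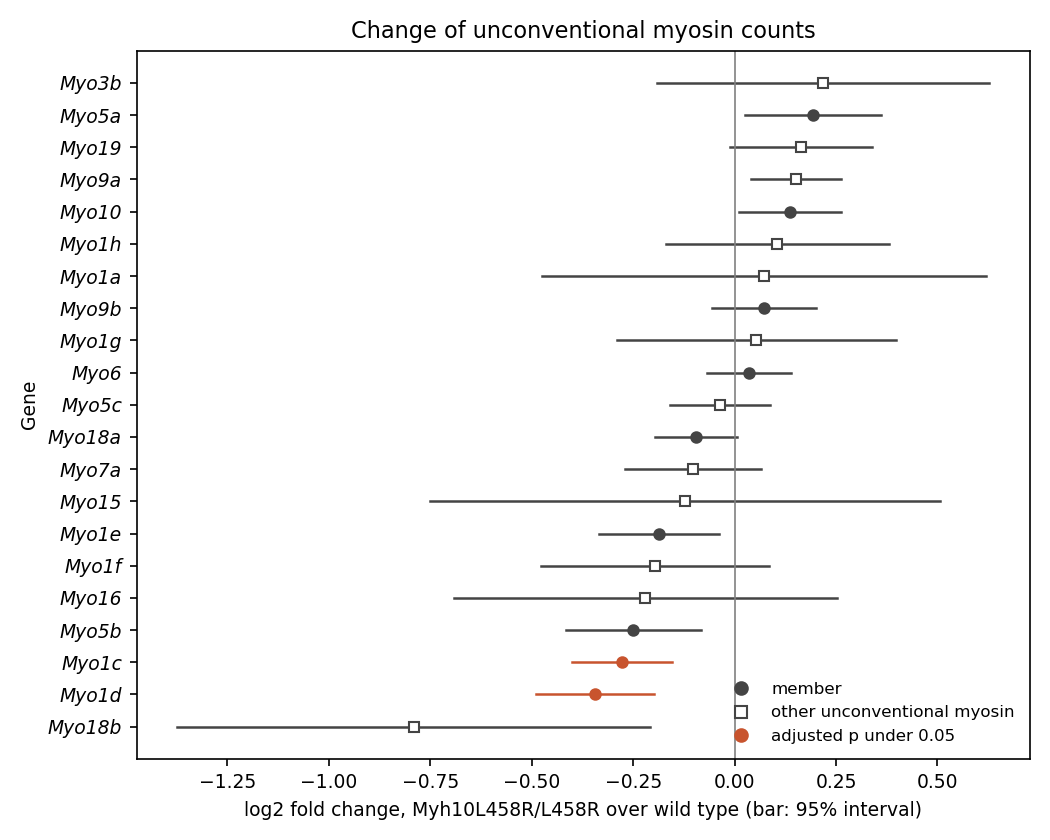
Log2 fold change (mutant over wild type) with its 95% interval for 21 of the 22 tested unconventional myosins. Filled circles are the 9 genes described, open squares the others, and *Myo1c* and *Myo1d* are coloured as past the adjusted threshold.

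The myosin II heavy chains were measured beside them. *Myh14*, the nonmuscle IIC chain, fell from 266 and 261 CPM to 184 and 183 CPM (log2 fold change -0.52, SE 0.04, adjusted p = 4.99e-04). *Myh9*, the IIA chain, was at 609 and 585 against 542 and 502 CPM (-0.19, adjusted p = 0.169, and 0.0222 without the filter on low counts), and *Myh10* gave 0.06 (adjusted p = 0.662). The fall of *Myh14* passed without each lung in turn, unlike those of *Myo1c* and *Myo1d*.

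Genes that work with these motors were taken from lists by class. Of 14 class V partners, 4 fell and none rose: *Rab11fip1*, an adaptor of Rab11 vesicles, *Rab25*, an epithelial Rab11 relative, *Rab27a*, a GTPase of secretory organelles, and *Mlph*, the adaptor that ties Rab27a to myosin Va. *Rab11fip1* went from 38.4 and 38.6 CPM in wild-type lungs to 27.5 and 25.6 CPM in mutant lungs (log2 fold change -0.54, SE 0.08, adjusted p = 0.00897). *Rab25* went from 56.0 and 57.4 to 42.4 and 45.4 CPM (-0.37, SE 0.07, adjusted p = 0.0326). None of these 4 genes overlapped between genotypes, but they were picked as past the threshold, and 48.3% of all tested genes did not overlap. The share called over all tested genes was 1.34% lower and 0.298% higher. *Rab27a* went from 48.4 and 43.3 to 33.3 and 36.4 CPM (-0.39, adjusted p = 0.0400). *Mlph* went from 19.5 and 18.9 to 12.4 and 15.3 CPM (-0.47, adjusted p = 0.0444). The 2 most abundant partners, *Rab10* and *Rab11a*, gave -0.11 and -0.07 and did not pass, and the median over the 14 was -0.08 against 0.00 for all tested genes.

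Not every one of these 4 calls held without single lungs. *Rab11fip1* passed without each lung in turn, *Rab25* did not without wild-type lung 2 (adjusted p = 0.128), *Rab27a* did not without wild-type lung 1 (0.0982) or mutant lung 1 (0.0904), and *Mlph* did not without wild-type lung 1 (0.0821), wild-type lung 2 (0.0544) or mutant lung 1 (0.211). *Mlph* also missed with DESeq2 (adjusted p = 0.0505).

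No gene passed among 8 light chains and chaperones (median log2 fold change -0.08), 7 class VI partners (-0.05), 5 class I partners (0.11), 6 tested class X partners (-0.02) or 10 partners of classes IX and XVIIIA (-0.06). *Hsp90ab1*, the chaperone of motor folding, was at 1738 and 1755 against 1632 and 1643 CPM, with an adjusted p of 0.687. *Dab2*, the endocytic adaptor of myosin VI, was at 102 and 93.1 against 111 and 105 CPM (0.15, adjusted p = 0.252, and 0.087 to 0.21 without single lungs), and *Tax1bp1*, its autophagy adaptor, gave -0.08 (adjusted p = 0.444). *Tjp1* gave -0.09 and *Rictor* 0.12 among the class I partners, *Itgb1* 0.02 and *Neo1* -0.11 (-0.18 to -0.043 without single lungs) among the class X partners, and *Rhoa* -0.08 and *Cdc42bpb* -0.05 among the last list, none past the threshold. Of the class I partners *Kirrel* passed as higher with GC content and exon length taken into account (0.26, adjusted p = 0.0392), without the filter on low counts (adjusted p = 0.0126) and without mutant lung 2 (0.31, adjusted p = 0.00510), where *Rictor* also passed (adjusted p = 0.0410). The value of *Itgb1* turned to -0.014 when GC content and exon length were taken into account. At an unadjusted p under 0.05, 9 of the 42 tested partners were lower and 3 higher, against 9.02% and 7.52% of all tested genes.

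Of 6 tested microvillus genes 1 fell, where 1.34% of all tested genes were called lower. *Ezr*, the linker of actin to the apical membrane, went from 234 and 238 CPM to 202 and 205 CPM (log2 fold change -0.21, SE 0.04, adjusted p = 0.0379). It did not pass without wild-type lung 1 (adjusted p = 0.148), without wild-type lung 2 (0.2996), with library totals as the scale (0.0521), or with genes of chromosomes X, Y and MT left out (0.0636). *Slc9a3r1*, its scaffold partner, was at 41.2 and 47.0 against 37.2 and 38.0 CPM (-0.23, adjusted p = 0.191, and -0.32 to -0.13 without single lungs).

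Markers of alveolar epithelium were lower in the same mutant lungs. All 8 markers of alveolar type 1 cells fell (median log2 fold change -0.45), from *Pdpn* at -0.37 and *Akap5* at -0.38 through *Emp2*, *Hopx*, *Clic5*, *Ager* and *Rtkn2* to *Aqp5* at -1.23. Their summed level was 3176 and 3026 CPM in wild-type lungs and 2076 and 2437 CPM in mutant lungs, with *Emp2* the most abundant. With DESeq2, under which 3.5% of the genes given an adjusted p passed, 5 of the 8 did, without *Hopx* (adjusted p = 0.232), *Aqp5* (0.0531) and *Clic5* (0.0571), and *Hopx* (0.0950) and *Aqp5* (0.237) also missed with robust estimation of the spread. *Hopx* gave -0.24 without mutant lung 1 and -0.41 with all 4 lungs. *Pdpn* did not pass without wild-type lung 1 (adjusted p = 0.0544), *Akap5* without wild-type lung 2 (0.122) or mutant lung 1 (0.0946), nor *Emp2* without wild-type lung 1 (0.0643), wild-type lung 2 (0.160) or mutant lung 1 (0.201). Of 8 markers of alveolar type 2 cells 7 fell (median -0.42), namely *Sftpa1*, *Slc34a2*, *Sftpb*, *Napsa*, *Lpcat1*, *Lamp3* and *Abca3*, and the most abundant, *Sftpc*, gave -0.41 with an adjusted p of 0.173. Without single lungs *Sftpc* ranged from -0.56 to -0.27, passing without mutant lung 2. It passed without the filter on low counts (adjusted p = 9.27e-10), where its value was -0.40 and 4.07% of all genes passed. The summed level of the 8 type 2 markers was 9300 and 8835 CPM in wild-type lungs and 6184 and 7322 CPM in mutant lungs. *Abca3* and *Lamp3* lost their calls without wild-type lung 1 (-0.18 and -0.30, against -0.26 and -0.38 with all 4 lungs). *Slc34a2* lost its call without mutant lung 1 (-0.38 against -0.56) and with DESeq2 (-0.56, adjusted p = 0.0882). *Sftpb* lost its call without wild-type lung 2, but its value there was -0.50, against -0.48 with all 4 lungs.

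Of 11 general epithelial markers 4 fell, *Cdh1* (-0.30), *Krt8* (-0.33), *Krt19* (-0.35) and *Elf3* (-0.42), while *Nkx2-1*, the most abundant, gave 0.02. Their summed level was 1860 and 1869 CPM against 1650 and 1688 CPM. *Cdh1* did not pass without wild-type lung 1 (adjusted p = 0.0985), nor *Elf3* without wild-type lung 2 (0.193). Of 3 airway markers (median -0.36) *Scgb1a1* fell (-1.36), a call that robust estimation of the spread (adjusted p = 0.343) or DESeq2 (0.0529) removed, while *Scgb3a2* and *Foxj1* gave -0.36 and -0.26 without passing (summed level 610 and 793 against 486 and 572 CPM). *Scgb3a2* was uneven, giving -0.56 without wild-type lung 1 (adjusted p = 6.82e-04), -0.49 without mutant lung 2 (5.56e-04), -0.13 without wild-type lung 2 (0.781) and -0.24 without mutant lung 1 (0.388), and it passed with GC content and exon length taken into account (-0.52, adjusted p = 0.0364). *Foxj1* passed without mutant lung 1 (adjusted p = 0.0346), and both passed without the filter on low counts. No defining epithelial marker was at 0. The part of these markers in the values of *Myo1c* and *Myo1d* was not tested.

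Of the other marker lists, smooth muscle, endothelium and cardiac muscle had every tested gene below 0, leukocytes 7 of 8 and mesenchyme 5 of 11. None of 11 mesenchymal markers passed (median 0.01, summed level 5794 and 5921 against 5782 and 5634 CPM, most abundant *Col3a1* at 0.01 and *Col1a2* at -0.06), nor did any of 6 smooth muscle markers (median -0.08, 684 and 738 against 666 and 664 CPM, most abundant *Acta2* at -0.12 and *Myh11* at -0.09). Of 8 endothelial markers (median -0.13) 1 fell, *Cldn5* (-0.34), while the most abundant, *Cdh5* and *Pecam1*, gave -0.09 and -0.15. Their summed level was 1726 and 1694 against 1579 and 1541 CPM. Without single lungs *Col1a2* ranged from -0.098 to -0.020, *Acta2* from -0.19 to -0.042, *Myh11* from -0.14 to -0.041 and *Cdh5* from -0.15 to -0.033. Of 8 leukocyte markers (median -0.24) 2 fell, *Lyz2* (-0.44, and -0.28 without mutant lung 1), the most abundant, and *Laptm5* (-0.32), whose adjusted p of 0.04997 was just under the threshold and stood above it without wild-type lung 1 (0.187), wild-type lung 2 (0.200) or mutant lung 1 (0.161), and with DESeq2 (0.117), DESeq2 size factors (0.0521), library totals (0.0547), edgeR's filterByExpr (0.0521) or GC content and exon length taken into account (0.0770) (summed level 311 and 291 against 218 and 254 CPM). In that summed level *Lyz2* alone gave 186 and 173 against 117 and 148 CPM, and bulk lung does not tell from which cells. *Csf1r*, the second most abundant of the list, gave -0.22 with an adjusted p of 0.163. Of 5 tested cardiac muscle markers (median -0.57) 3 fell, *Myh6* (-0.73), *Myl7* (-0.65) and *Tnnt2* (-0.57). The summed level of the list was 201 and 254 against 163 and 147 CPM. *Actc1*, the most abundant, gave -0.41 with an adjusted p of 0.0575. It passed with DESeq2 (adjusted p = 0.00700), with robust estimation (0.0174) and without the filter on low counts (4.77e-05). Without single lungs *Actc1* ranged from -0.55 to -0.25. *Nppa* had at most 2 counts per lung. Without wild-type lung 2, *Cldn5* (adjusted p = 0.104), *Myl7* (0.0519) and *Tnnt2* (0.202) did not pass, *Tnnt2* at -0.36, and *Lyz2* did not with DESeq2 (0.164). Without genes of chromosomes X, Y and MT, *Sftpc* (0.0185) and *Actc1* (0.0265) passed as lower and *Laptm5* (0.0580) did not pass. The part of these lists in the values of the myosins was not tested either.

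**Figure D5:**
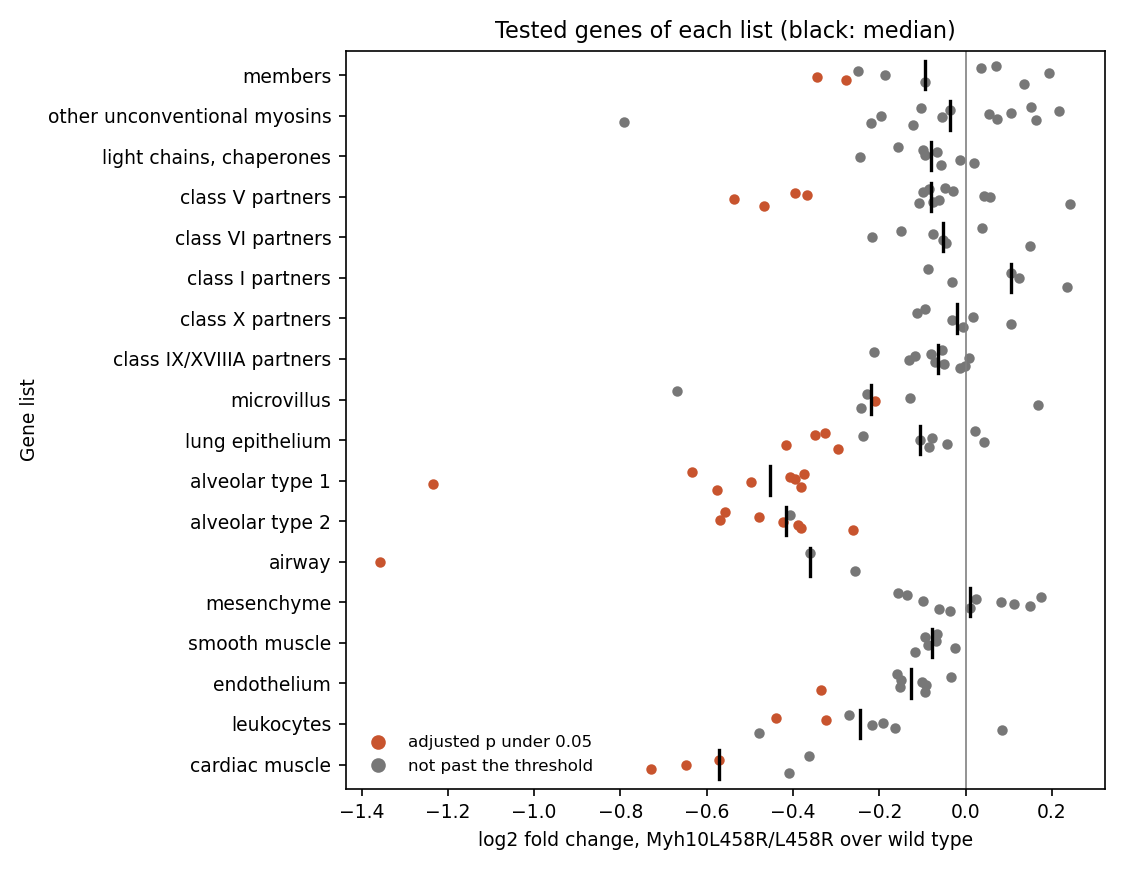
Log2 fold change (mutant over wild type) of each tested gene in 18 lists of myosins, partners and cell type markers, coloured where the adjusted p is under 0.05, with a black line at each median. The lowest medians are those of cardiac muscle (-0.57), alveolar type 1 (-0.45), alveolar type 2 (-0.42) and airway (-0.36) markers, left of those of the 9 myosins (-0.09) and of mesenchymal markers (0.01).

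The gene whose pattern over the 4 lungs was most like that of each myosin was sought among 135 genes of the other lists, by the root mean square difference of centred log2 CPM. *Myo1c* was closest to *Cdh1*, the epithelial cadherin (difference 0.0265), which was at 388 and 369 CPM in wild-type lungs and 303 and 313 CPM in mutant lungs. *Myo1d* was closest to the leukocyte gene *Laptm5* (0.0160), and *Myo5b* to *Abca3*, the lipid transporter of surfactant organelles (0.0268), at 359 and 321 against 286 and 281 CPM. With 4 lungs such likeness is a description of these libraries only. *Myo1e* was closest to *Unc45b*, a myosin chaperone (0.0256), and *Myo5a* to *Kirrel*, a cell adhesion gene (0.0404), which was at 98.1 and 90.6 against 117 and 105 CPM (adjusted p = 0.102). *Myo6* was closest to *Rab11fip3* (0.0129), *Myo9b* to *Esrp1* (0.0150), *Myo10* to *Rictor* (0.0183) and *Myo18a* to *Stx3* (0.0133).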

How the data were processed

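The authors isolated total RNA from left lobes, prepared stranded mRNA libraries, and sequenced single-end reads. Per the labels and the study's methods, reads were trimmed with Reaper, aligned to mm10 (GRCm38) with STAR 2.4.0a and counted per gene with featureCounts 1.5.1, without reads of several genes or regions. The deposited values are raw counts per gene. Whether counting used strand is not given in the sources used here, and the named genes with exons on both strands are uncertain: *Myo9b*, *Myo9a*, *Myo19*, *Myh14*, *Unc45b*, *Rab10*, *Rab11fip1*, *Rab11fip3*, *Dab2*, *Tax1bp1*, *Rhoa*, *Cdc42bpb*, *Ezr*, *Krt8*, *Esrp1*, *Elf3*, *Hopx*, *Rtkn2*, *Abca3*, *Napsa*, *Csf1r*, *Myh6*, *Myo18b*, *Nppa* and *Xist*. No window of 75 bases of the other 8 myosins matched another gene.

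Genotypes were taken from the sample labels. Of 45706 genes, 28549 had a count and 18763 had a mean of at least 5 counts and were tested with edgeR 4.0.16 (TMM factors, glmQLFit with robust = FALSE, glmQLFTest, two-sided) in R 4.3.3. Fold changes are mutant over wild type with 95% intervals. DESeq2 1.42.0 was an alternative, with other scalings, filters, blocks, a GC content and exon length offset (loess span 0.3) and leaving out each lung. Exon lengths came from GENCODE release M21. Ratios were tested by exact permutation. Replicate lungs differed by more than counting error (chi-square per degree of freedom 7.47 for wild-type and 12.6 for mutant lungs), so the number of lungs limits the precision. These values include genes of chromosomes X and Y, and *Xist* and *Ddx3y* differed strongly within each genotype. The part of such genes in them was not measured. The lungs were from separate mice, 2 per genotype. The edgeR p-values, standard errors and intervals do not rest on the spread between these lungs alone. The spread of each gene was moderated by values shared over all tested genes, giving 12.1 degrees of freedom. The test was checked on simulated data.

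The members and lists were chosen with earlier results of these data known. The genes named were all 9 myosins, of each list every gene past the threshold and the 2 most abundant (5 for other unconventional myosins), the gene most alike each myosin, and *Xist* and *Ddx3y*, except 2 genes that are counted in their lists but not reported here by name. *Myo18b*, *Myo3a*, *Myo7b*, *Haus8*, *Nos2* and *Nppa* were named after their values were seen. RefSeq promoter windows were found for 7 of the 9 myosins.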

Additional observations from a re-analysis of the deposited data

How the results depend on the processing

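*Myo1c* and *Myo1d* kept their direction and their call under all 12 alternatives that used the 4 lungs, with log2 fold changes of -0.28 to -0.24 (adjusted p = 1.65e-06 to 0.0379) and -0.35 to -0.31 (3.84e-04 to 0.0307). Leaving out 1 lung in turn gave 191 to 1826 genes past the threshold against 308, 0 to 4 of the 9 myosins against 2, and 21 to 45 genes of the lists. Without wild-type lung 1 no myosin passed. Without mutant lung 1, *Myo1e* and *Myo5b* also passed as lower, and without mutant lung 2, *Myo5a* and *Myo10* as higher; here the lone lung of an arm is assumed to vary like the other genotype. The log2 fold changes without 1 lung ranged from -0.33 to -0.22 for *Myo1c* (adjusted p up to 0.169), -0.37 to -0.32 for *Myo1d* (up to 0.115), -0.26 to -0.12 for *Myo1e*, 0.10 to 0.28 for *Myo5a*, -0.32 to -0.18 for *Myo5b*, 0.033 to 0.037 for *Myo6*, 0.0099 to 0.14 for *Myo9b*, 0.068 to 0.21 for *Myo10* and -0.12 to -0.066 for *Myo18a*.

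The number of genes past the threshold was 474 with robust estimation, 1162 without the filter (4.07% of 28549) and 696 at an adjusted p under 0.1. It was 710 with a block for replicate number, and 924 with that block and the GC content and exon length offset. All 308 genes were among the 710. With library totals, 233 were lower and 111 higher, against 252 and 56. The correlation of same-numbered lungs' deviations was -0.30, -0.65 over the genes averaging 250 counts or more, and 0.01 without chromosomes X, Y and MT, and the numbers were not taken to pair the lungs; the block changed the call of none of the 9 myosins. With it *Kirrel* rose (0.23, adjusted p = 0.0292) and *Scgb3a2* fell (-0.35, 0.0122), and with the offset as well *Tax1bp1* (-0.19, 0.0129), *Rhoa* (-0.14, 0.0358) and *Actc1* (-0.37, 0.0190) fell. Crossing the numbers, chosen after seeing the data, gave 415 genes. *Ezr* (adjusted p = 0.111), *Abca3* (0.0589) and *Laptm5* (0.0680) then did not pass, while *Sftpc* (0.0107) and *Actc1* (0.00431) passed as lower. With the offset as well it gave 959 genes, among them *Myo5b* (-0.24, adjusted p = 0.0175) and *Myh9* (-0.19, 0.0380), both lower.

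With the GC content and exon length offset *Myo6* turned to -0.029, *Itgb1* to -0.0144 and the *Myo9a* to *Myo9b* difference to -0.033. With the replicate block and that offset *Myo6* gave -0.030 and *Itgb1* -0.0145, and with the crossed block and that offset -0.0290 and -0.0145. Without 1 lung the *Myo1d* to *Myo1c* difference ranged from -0.15 to 0.012 and the *Myo1e* to *Myo1c* difference from -0.037 to 0.22, and log2 fold changes that turned ranged from -0.10 to 0.033 for *Myo5c*, -0.16 to 0.010 for *Rab11a*, -0.11 to 0.0076 for *Cdc42bpb*, -0.010 to 0.057 for *Nkx2-1*, -0.021 to 0.046 for *Col3a1* and -0.011 to 0.10 for *Esrp1*. The cause was not tested in any of these cases.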
